A study of Mus musculus with 18 samples.

Results

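The strain difference in kidney mRNA between IKKβ∆Tub and control mice 14 days after ischemia/reperfusion (I/R) injury was set against the same difference at baseline. For each gene the value tested was (IKKβ∆Tub minus control 14 days after I/R injury) minus (IKKβ∆Tub minus control at baseline) on the log2 scale, called the interaction here. A positive interaction means that IKKβ∆Tub stood higher relative to control 14 days after I/R injury than at baseline, and a negative one that it stood lower. All genes with a level of at least 0.005 in at least 3 of the 12 libraries were tested, which were 15921 of the 29307 genes in the deposited table. The 12 libraries were 3 each of IKKβ∆Tub and of control mice 14 days after I/R injury and 3 each of IKKβ∆Tub and of control mice at baseline, out of 18 in the series. Control mice carried floxed IKKβ alleles (IKKβfl/fl) and no Cre. IKKβ∆Tub mice carried the same alleles with Pax8-rt-TA and LC1Cre, so that doxycycline switched on Cre in tubular epithelium. By the study's methods both strains received doxycycline in drinking water followed by a washout, and I/R injury was made by clamping the left renal pedicle. Whole kidney RNA was sequenced, so tubular, vascular, interstitial and immune cells were measured together, and fewer cells of a type and less RNA per cell cannot be told apart.

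IKKβ is the kinase of the IKK complex that phosphorylates IκB proteins, which marks them for degradation and frees NF-κB dimers to enter the nucleus. NF-κB then drives genes of chemokines, adhesion molecules and its own inhibitors such as IκBα and A20. Tubular cells are a source of such chemokines after I/R injury, and injured tubules lose transporters of the differentiated epithelium while they gain injury markers such as lipocalin 2.

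Libraries of the 14 day groups held 13053850 to 25933188 reads and those of the baseline groups 26285452 to 66317182. Levels are gene reads scaled to the 90th percentile within each library, and 1 read was worth a level of 0.000429 to 0.000928 at 14 days and 0.000218 to 0.000504 at baseline. The labels describe each library as RNA of 2 mice whereas the deposited key lists some as single mice, so the number of mice is unclear and p-values measure the spread between libraries. Markers of the proximal tubule, which makes up most of the kidney cortex, summed to levels of 117 to 245 in IKKβ∆Tub and 88.9 to 114 in control 14 days after I/R injury, and 323 to 413 in IKKβ∆Tub and 370.0 to 430.2 in control at baseline. Sex was not balanced. Y-linked mRNA was at a level of 0.05 or more in replicates 1 and 2 of control 14 days after I/R injury and in replicates 2 and 3 of IKKβ∆Tub at baseline, and in no other of the 12 libraries. Replicate 2 of IKKβ∆Tub 14 days after I/R injury stood apart from its group. On the first principal component, which held 64.1% of the variance, it lay at 12.9, whereas replicates 1 and 3 lay at -62.9 and -56.8, the control libraries of that time at -83.3 to -80.7 and the baseline libraries at 47.5 to 66.3. Interactions are therefore also given from a fit with the Y-linked level of each library as a covariate and, for gene lists, without that replicate. Y-linked mRNA varied only within control 14 days after I/R injury and within IKKβ∆Tub at baseline. For those groups the covariate interactions rest on the lone library without it, replicate 3 and replicate 1. They lie close to interactions from the libraries without Y-linked mRNA alone (Pfkfb3 -1.67 and -1.66, Bsnd 0.80 and 0.80). The covariate fit and that fit are therefore not separate checks. For a gene, the value with the covariate is printed where it differs by more than 1.5 times. The deposited key lists the baseline libraries apart, as new samples with other animal codes, and they were sequenced more deeply, so time and these differences cannot be told apart, whereas each strain difference was taken within a time.

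The deleted gene and a strain mark separated the strains at both times. Ikbkb is the gene of IKKβ, with the identifier ENSMUSG00000031537 and a place on chromosome 8 of GRCm38 from 22659212 to 22706589. It had levels of 0.843, 0.669 and 0.844 in IKKβ∆Tub and 1.21, 1.11 and 1.13 in control 14 days after I/R injury, against 0.551, 0.426 and 0.376 in IKKβ∆Tub and 0.765, 0.736 and 0.861 in control at baseline. IKKβ∆Tub lay below control in every library at both times, and the interaction was 0.26 (-0.02 with the covariate, SE 0.22, 95% interval -0.23 to 0.75, adjusted p = 0.633 from limma). Reads cover the whole gene in all kidney cells and not the deleted part alone. Vmn1r32, a vomeronasal receptor gene (chromosome 6 of GRCm38 from 66552180 to 66560096), had 138, 57 and 71 reads in IKKβ∆Tub and 0 in every control library 14 days after I/R injury, and 94, 266 and 356 reads in IKKβ∆Tub and 0 in every control library at baseline.

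No gene passed the interaction test at an adjusted p under 0.05 with limma (0 of 15921 genes, 0%), and the smallest adjusted p was 0.052, for Pfkfb3. The unadjusted p was below 0.05 for 2238 genes, of which 1136 (7.14% of genes tested) had a positive and 1102 (6.92%) a negative interaction. edgeR's quasi-likelihood test on the recovered reads also called 0 genes, with 2288 at an unadjusted p under 0.05. DESeq2 called 535 of 15584 genes (3.43%), 206 positive and 329 negative, of which 524 had an unadjusted p under 0.05 in limma. Of the 535, 188 had the same sign and an unadjusted p under 0.05 in limma with the Y-linked covariate. With the Y-linked covariate 0 genes were called and 1281 had an unadjusted p under 0.05. In the fit of all 18 libraries 19 genes were called, 7 positive and 12 negative. The 6 libraries of 2 days enter that fit through its estimate of the spread and the 16342 genes it tests, not through the contrast, and strain labels among them are in doubt. Ikbkb had levels of 0.856, 0.846 and 0.986 in libraries labelled IKKβ∆Tub and 0.829, 0.855 and 1.29 in libraries labelled control at 2 days, and Vmn1r32 had 17, 32 and 18 reads in libraries labelled IKKβ∆Tub and 21, 31 and 3 in libraries labelled control, so that replicates 1 and 2 labelled control were not separated from IKKβ∆Tub by either gene. The count also depended on single libraries. It was 447 without replicate 1 of IKKβ∆Tub at baseline, the lone library of that group without Y-linked mRNA, 5 without replicate 1 and 3 without replicate 3 of IKKβ∆Tub 14 days after I/R injury, and 1 each without replicate 2 of control 14 days after I/R injury, replicate 3 of IKKβ∆Tub at baseline or replicate 2 of control at baseline. The strain difference itself was called for 18 genes (0.113%) 14 days after I/R injury and for 1 gene (0.00628%), Vmn1r32, at baseline. At 14 days edgeR and limma with the Y-linked covariate each called 1 gene, Vmn1r32, and limma called 3 genes without replicate 2 and 66 without replicate 1 of IKKβ∆Tub and 4 without replicate 1 of control, so that the count rests on single libraries. The 14 day calls of Alpl, Slc2a2 and Ccl2, given below, were all lost with edgeR, with the covariate, among the 8 libraries without Y-linked mRNA, with the replicate block and without that replicate 2 of IKKβ∆Tub. Alpl and Ccl2 were also lost with a pseudocount of 0.001, with a filter of 0.05, without replicate 2 of control at 14 days and without replicate 2 or 3 of IKKβ∆Tub at baseline. Alpl was lost without replicate 3 of control at 14 days as well, and Ccl2 with no filter, without replicate 1 of control at 14 days, without replicate 1 of IKKβ∆Tub at baseline and without replicate 2 of control at baseline. Since no gene passed the interaction test with limma, the genes below are described by their values. For gene lists, called refers to limma. DESeq2, run without the covariate, called 6 of 7 neutrophil, 5 of 18 NF-κB target, 3 of 17 injury and 7 of 12 androgen-dependent genes, all negative. It called 5 of 28 proximal tubule, 3 of 12 thick ascending limb and 3 of 8 intercalated cell genes, all positive. Of 10 T cell, 19 tricarboxylic acid cycle and 31 proliferation genes it called 0. The 95% interval of the median gene reached 0.772 to either side on the log2 scale.

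**Figure D1:**
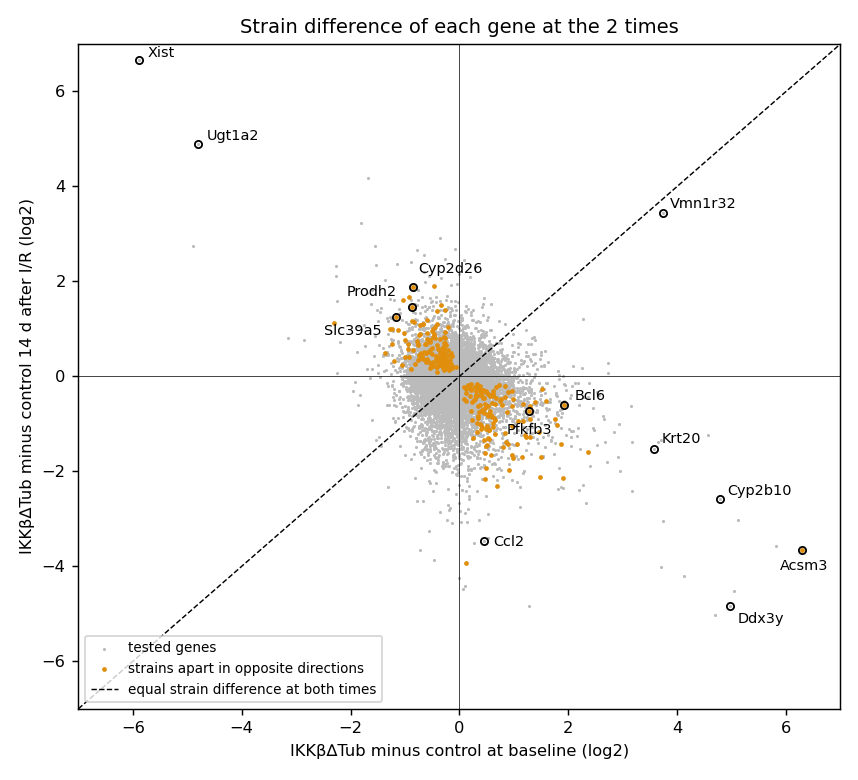
Strain difference of each of 15921 genes, IKKβ∆Tub minus control in log2, 14 days after I/R injury (vertical axis) and at baseline (horizontal axis). Each point is a gene, orange points are the 274 genes whose libraries were apart in opposite directions, and circles mark labelled genes. A gene with an equal difference at both times lies on the dashed diagonal, as Vmn1r32 nearly does, whereas Pfkfb3 (-0.72 and 1.27) and Slc39a5 (1.25 and -1.16) lie off it.

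Some genes had strain differences of opposite sign with no overlap of libraries at either time. In 142 genes (0.892%) every IKKβ∆Tub library lay above every control library 14 days after I/R injury and below every control library at baseline, and in 132 genes (0.829%) the order was the reverse. In 18 genes IKKβ∆Tub lay above control at both times and in 149 genes below control at both times. Taking each time alone, the strains were apart in either direction in 3555 genes (22.3%) at baseline and in 2139 (13.4%) 14 days after I/R injury. Genes said below to be apart at 1 time stand beside these shares. Leaving out a library loosens this criterion. The 274 genes became 686 and 423 without replicate 1 or 3 of IKKβ∆Tub 14 days after I/R injury, 666 and 535 without replicate 1 or 3 of control 14 days after I/R injury, 584 without replicate 1 of IKKβ∆Tub at baseline and 487 without replicate 3 of control at baseline. Of the 1136 genes with a positive interaction at an unadjusted p under 0.05, 1066 had strain differences of opposite sign at the 2 times, and of the 1102 negative ones 998. With the Y-linked covariate 1106 and 1067 of them had the same sign, and 262 and 251 also an unadjusted p under 0.05. The interaction is 1 strain difference minus the other, so choosing genes by it favours opposite signs. The share of opposite signs over all genes was not counted.

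Pfkfb3 had the smallest p of all genes. It encodes an isoform of the enzyme that makes fructose-2,6-bisphosphate, an activator of glycolysis (ENSMUSG00000026773, chromosome 2 of GRCm38 from 11471433 to 11554077). Its levels were 0.667, 0.633 and 0.857 in IKKβ∆Tub and 1.12, 1.25 and 1.18 in control 14 days after I/R injury, against 0.860, 1.30 and 1.14 in IKKβ∆Tub and 0.446, 0.396 and 0.505 in control at baseline. The strains were apart in opposite directions, with IKKβ∆Tub below control 14 days after I/R injury and above it at baseline. The strain difference was -0.72 at 14 days and 1.27 at baseline, and the interaction -1.99 (SE 0.25, 95% interval -2.53 to -1.46). Relative to baseline, the 14 day level stood at -0.60 within IKKβ∆Tub and at 1.39 within control on the log2 scale. With the Y-linked covariate the interaction was -1.67 (SE 0.33), and over all alternatives it lay between -2.16 and -1.58. The adjusted p was 0.0621 from edgeR, 1.73e-09 from DESeq2, 0.00671 in the limma fit of 18 libraries, which holds the doubtful labels of 2 days, and 0.507 in limma with the covariate.

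Bcl6 and Adora1 had the same order of strains as Pfkfb3. Bcl6 encodes a transcriptional repressor (chromosome 16 of GRCm38 from 23965052 to 23988852), and its levels were 0.379, 0.191 and 0.362 in IKKβ∆Tub and 0.396, 0.431 and 0.556 in control 14 days after I/R injury, against 0.480, 0.690 and 0.359 in IKKβ∆Tub and 0.121, 0.117 and 0.144 in control at baseline. The strains were narrowly apart at 14 days and widely apart at baseline, with an interaction of -2.52 (SE 0.40, adjusted p = 0.103 from limma). Adora1 encodes the adenosine A1 receptor (chromosome 1 of GRCm38 from 134199223 to 134235431). It had levels of 0.114, 0.105 and 0.128 in IKKβ∆Tub and 0.182, 0.137 and 0.212 in control 14 days after I/R injury, against 0.181, 0.208 and 0.191 in IKKβ∆Tub and 0.0840, 0.0724 and 0.0925 in control at baseline. Its interaction was -1.76 (SE 0.29, adjusted p = 0.107 from limma). With the Y-linked covariate the interactions were -2.78 for Bcl6 and -1.95 for Adora1.

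The other genes with the smallest p in the negative direction were of mixed function. Slc12a2, which encodes the cotransporter NKCC1, had an interaction of -1.27 (SE 0.21), and Tiparp, which encodes an ADP-ribosyltransferase, one of -1.43 (SE 0.30, -0.83 with the covariate), and in both every IKKβ∆Tub library lay above every control library at baseline. Dnase1l2, a DNase gene, had -2.20, Klhl6, a BTB-kelch gene, -1.66, and Plet1os, annotated as an antisense transcript, -1.92. The strand setting of the counting is not given in the sources used here, so reads of Plet1os and of its antisense partner may not be separable. Cyp2b10, which encodes a xenobiotic-metabolizing cytochrome P450, had levels of 0.0214, 0.00366 and 0.121 in IKKβ∆Tub and 0.358, 0.209 and 0.0736 in control 14 days after I/R injury, against 0.0856, 0.232 and 0.198 in IKKβ∆Tub and 0.00269, 0 and 0.000290 in control at baseline. Control was near 0 in all 3 libraries at baseline, and the interaction of -7.37 (SE 1.15) depends on the pseudocount. Ugt8a, which encodes a ceramide galactosyltransferase, had -3.95 in the fit of 12 libraries and -1.21 with the Y-linked covariate.

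**Figure D2:**
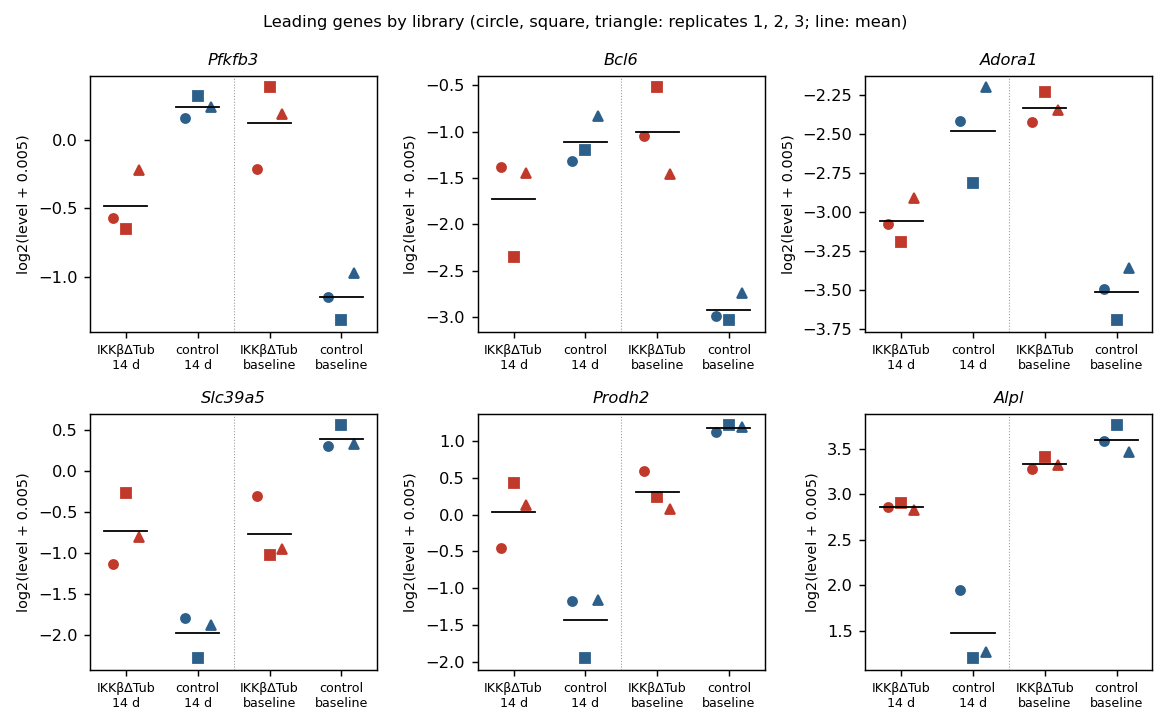
Level of leading genes in each of the 12 libraries on a log2(level + 0.005) axis, with IKKβ∆Tub left of control at each time and each point a library and each line a mean on that axis. Pfkfb3, Bcl6 and Adora1 lie lower in IKKβ∆Tub than in control 14 days after I/R injury and higher at baseline, and Slc39a5, Prodh2 and Alpl show the reverse order.

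In the positive direction the smallest p belonged to Slc39a5, which encodes the zinc transporter ZIP5 (ENSMUSG00000039878, chromosome 10 of GRCm38 from 128395931 to 128401229). Its levels were 0.448, 0.824 and 0.567 in IKKβ∆Tub and 0.284, 0.200 and 0.267 in control 14 days after I/R injury, against 0.802, 0.485 and 0.509 in IKKβ∆Tub and 1.23, 1.46 and 1.25 in control at baseline. IKKβ∆Tub was the higher strain at 14 days and the lower at baseline. The interaction was 2.41 (SE 0.35, 95% interval 1.65 to 3.16, adjusted p = 0.0976 from limma) and 1.85 with the Y-linked covariate. Relative to baseline, the 14 day level stood at 0.03 within IKKβ∆Tub and at -2.38 within control.

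Prodh2 encodes hydroxyproline dehydrogenase (chromosome 7 of GRCm38 from 30493622 to 30513402). It had levels of 0.726, 1.34 and 1.09 in IKKβ∆Tub and 0.438, 0.254 and 0.443 in control 14 days after I/R injury, against 1.5, 1.17 and 1.05 in IKKβ∆Tub and 2.16, 2.31 and 2.28 in control at baseline. The strains did not overlap at either time and the interaction was 2.34 (SE 0.35, adjusted p = 0.0976 from limma). Alpl encodes tissue-nonspecific alkaline phosphatase (chromosome 4 of GRCm38 from 137741733 to 137796384). Its levels were 7.24, 7.48 and 7.08 in IKKβ∆Tub and 3.86, 2.29 and 2.41 in control 14 days after I/R injury, against 9.72, 10.6 and 9.98 in IKKβ∆Tub and 12.0, 13.5 and 11.0 in control at baseline. Most of the interaction of 1.65 (SE 0.28) lay at 14 days, when Alpl was higher in IKKβ∆Tub by 1.39 (adjusted p = 0.024 from limma), whereas the baseline difference was -0.26. The IKKβ∆Tub libraries of Alpl lay close together at 14 days, replicate 2 included, and the interaction was 1.90 with the Y-linked covariate.

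Slc2a2, which encodes the basolateral glucose transporter GLUT2 of the proximal tubule, had levels of 1.93, 2.10 and 1.64 in IKKβ∆Tub and 0.865, 0.618 and 0.850 in control 14 days after I/R injury, against 4.05, 3.56 and 3.72 in IKKβ∆Tub and 3.35, 4.30 and 3.55 in control at baseline. It was higher in IKKβ∆Tub at 14 days (1.28, adjusted p = 0.0156 from limma) and the strains overlapped at baseline (0.02), which gave an interaction of 1.26 (SE 0.23, adjusted p = 0.117 from limma). Atp6v1b1, which encodes a subunit of the proton pump of intercalated cells, had an interaction of 1.60 (SE 0.32) and 1.03 with the Y-linked covariate. The remaining positive genes were Cyp2d26 (2.74, 1.78 with the covariate), Spp2 (2.59), the homeobox gene Emx1 (2.06), Tmem143 (1.30), the zinc finger gene Zfp503 (1.13) and Amt (0.98), which encodes the aminomethyltransferase of glycine cleavage. In each of these 6 genes every IKKβ∆Tub library lay below every control library at baseline, and in all but Emx1 every IKKβ∆Tub library lay above every control library at 14 days. Over all genes the strains were apart in either direction in 22.3% at baseline and in 13.4% at 14 days.

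When genes were ordered by p in the fit with the Y-linked covariate, the leading negative genes were Pfkfb3, Adora1, Acsm3, Bcl6, Pde3b and Ehf. Pde3b, a cyclic nucleotide phosphodiesterase gene, had an interaction of -1.18 with the covariate and -0.76 without it, and Ehf, which encodes an epithelial transcription factor, -1.69 and -1.15. The leading positive genes were Mif, Fam25c, Alpl, Phlda2, Atp5k and Dao, with 3.46 for Fam25c, 1.95 for the imprinted gene Phlda2 and 1.68 for Dao, which encodes D-amino acid oxidase. Mif encodes the cytokine macrophage migration inhibitory factor, and its levels were 1.81, 2.55 and 2.84 in IKKβ∆Tub and 2.12, 1.41 and 1.34 in control 14 days after I/R injury, against 1.54, 3.48 and 3.74 in IKKβ∆Tub and 4.56, 4.87 and 4.22 in control at baseline. Its interaction was 2.35 (SE 0.45) with the covariate and 1.31 (SE 0.44) without it. Replicate 1 of IKKβ∆Tub at baseline was the lowest of all baseline libraries for Mif and for Atp5k (2.30 with the covariate), which encodes a subunit of ATP synthase. All 12 genes had an adjusted p = 0.507 from limma with the covariate.

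Promoters of 4 NF-κB pathway genes are shown because the pathway's genes had mostly negative interactions. The 4 were picked by hand and each holds a match, so they do not stand for the pathway's promoters as a whole. The 250 bases before the RefSeq start of each gene are given (GRCm38.p6), 5′ to 3′ on the strand of the gene, with matches to the consensus κB site on either strand in capitals and overlapping matches run together.
Cxcl1 promoter: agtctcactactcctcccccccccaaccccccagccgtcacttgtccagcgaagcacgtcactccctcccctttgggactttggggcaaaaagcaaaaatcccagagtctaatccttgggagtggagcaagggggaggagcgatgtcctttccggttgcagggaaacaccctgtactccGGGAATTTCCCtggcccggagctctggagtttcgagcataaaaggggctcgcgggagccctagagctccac
Cxcl2 promoter: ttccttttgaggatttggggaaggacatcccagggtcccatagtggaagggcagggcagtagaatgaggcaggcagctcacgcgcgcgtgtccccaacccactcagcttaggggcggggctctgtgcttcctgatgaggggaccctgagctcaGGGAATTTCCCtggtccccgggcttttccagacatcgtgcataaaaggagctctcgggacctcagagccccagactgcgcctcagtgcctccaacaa
Nfkbia promoter: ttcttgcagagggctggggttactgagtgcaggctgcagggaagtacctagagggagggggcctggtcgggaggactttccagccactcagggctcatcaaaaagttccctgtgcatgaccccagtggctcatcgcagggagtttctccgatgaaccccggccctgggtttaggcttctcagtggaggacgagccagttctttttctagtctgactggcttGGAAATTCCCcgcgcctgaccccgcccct
Tnfaip3 promoter: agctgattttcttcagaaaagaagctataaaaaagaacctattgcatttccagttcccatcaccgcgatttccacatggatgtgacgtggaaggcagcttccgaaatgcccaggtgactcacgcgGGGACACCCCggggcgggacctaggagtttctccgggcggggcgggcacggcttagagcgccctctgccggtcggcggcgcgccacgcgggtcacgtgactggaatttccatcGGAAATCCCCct
They lie at chr5:90890995-90891244 (plus strand), chr5:90903649-90903898 (plus strand), chr12:55492648-55492897 (minus strand) and chr10:19015411-19015660 (minus strand). GENCODE M21, the source of the gene positions given here, starts some of these genes further upstream, and 247 of the 250 bases of Tnfaip3, 28 of Cxcl2, 4 of Cxcl1 and 0 of Nfkbia lie within its gene. A match was found in 7 of 14 promoters of the NF-κB target list (50.0%) and in 5 of 11 promoters of the component list (45.5%), beside 1028 of 11803 promoters of tested genes (8.71%). A match describes the letters in this window and does not show that NF-κB binds there. Both lists were made of genes already placed in the pathway, so these shares say nothing about the interaction.

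Of 14 components of the IKK and NF-κB pathway tested, 13 had a negative and 1, Ikbkb, a positive interaction, with a median of -0.76 beside 0.04 over all genes (-0.06 with the covariate and 0.08 without replicate 2 of IKKβ∆Tub 14 days after I/R injury). Over all genes 53.1% were positive and 46.9% negative. The positive share was 46.1% with the covariate and 56.8% without that replicate, and sign counts of every list stand beside these shares. At an unadjusted p under 0.05 there were 5 negative members, beside 6.92% of all genes, and none was called. In the covariate fit 2 members had an unadjusted p under 0.05. Tnfaip3, which encodes the ubiquitin-editing inhibitor A20, had levels of 0.544, 0.268 and 0.445 in IKKβ∆Tub and 0.815, 0.801 and 0.995 in control 14 days after I/R injury, against 0.149, 0.222 and 0.166 in IKKβ∆Tub and 0.138, 0.101 and 0.127 in control at baseline. The strains did not overlap at either time, and the interaction was -1.62 (SE 0.35, adjusted p = 0.181 from limma) and -1.59 with the Y-linked covariate. Nfkbia, which encodes IκBα, had levels of 1.54, 1.03 and 1.98 in IKKβ∆Tub and 2.35, 2.19 and 2.27 in control 14 days after I/R injury, against 1.05, 1.12 and 0.796 in IKKβ∆Tub and 1.09, 0.968 and 0.462 in control at baseline. The strains were apart at 14 days and overlapped at baseline, with an interaction of -0.94 (SE 0.43). Rel, which encodes the NF-κB subunit c-Rel, had -1.38 (SE 0.35), and Bcl3, an atypical IκB gene, -1.88 in the 12 libraries and -0.16 with the covariate. The list median was -0.31 with the covariate and -0.54 without replicate 2 of IKKβ∆Tub 14 days after I/R injury.

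Of 18 NF-κB target genes tested, 17 had a negative and 1 a positive interaction, with a median of -1.40. There were 10 negative genes and 1 positive gene at an unadjusted p under 0.05, beside 6.92% and 7.14% of all genes, and none was called. With the Y-linked covariate 6 target genes had an unadjusted p under 0.05. Ccl2, the monocyte chemokine gene, had levels of 0.0326, 0.0132 and 0.0739 in IKKβ∆Tub and 0.762, 0.383 and 0.241 in control 14 days after I/R injury, against 0.00756, 0.0124 and 0.00808 in IKKβ∆Tub and 0.00195, 0.00552 and 0.0101 in control at baseline. It was lower in IKKβ∆Tub at 14 days (-3.47, adjusted p = 0.0291 from limma) without overlap of the strains, and the interaction was -3.92 (SE 0.74, adjusted p = 0.128 from limma). Cxcl1, a neutrophil chemokine gene, had levels of 0.146, 0.0154 and 0.170 in IKKβ∆Tub and 0.540, 0.176 and 0.370 in control 14 days after I/R injury, against 0.0710, 0.0890 and 0.0402 in IKKβ∆Tub and 0.0271, 0.0404 and 0.0148 in control at baseline. Its interaction was -3.19 (SE 1.00), and that of the related chemokine gene Cxcl2 -2.99 (SE 0.95). Cxcl2 had levels of 0.132, 0.00659 and 0.0553 in IKKβ∆Tub and 0.251, 0.204 and 0.210 in control 14 days after I/R injury, against 0.00604, 0.0181 and 0.00523 in IKKβ∆Tub and 0.00366, 0.00276 and 0.00435 in control at baseline. IKKβ∆Tub lay below control at 14 days in every library of both genes, and at baseline it lay above control in every library of Cxcl2 and overlapped with control in Cxcl1. The baseline control levels of Cxcl2 lay below the pseudocount of 0.005 and those of IKKβ∆Tub began at 0.00523, so this separation is near the floor. The positive member was Sod2 (0.72), which encodes mitochondrial superoxide dismutase. The list median was -1.44 with the Y-linked covariate and -0.95 without replicate 2 of IKKβ∆Tub 14 days after I/R injury.

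Markers of tubular injury had mostly negative interactions. Of 17 injury genes tested 15 were negative (6 at an unadjusted p under 0.05) and 2 positive (1), with a median of -1.56 and none called. Over all genes 6.92% were negative and 7.14% positive at that p. In the covariate fit 1 injury gene had an unadjusted p under 0.05. Krt20, a keratin gene of injured epithelium, had levels of 0.868, 0.0857 and 0.459 in IKKβ∆Tub and 1.21, 0.952 and 0.740 in control 14 days after I/R injury, against 0.0524, 0.529 and 0.173 in IKKβ∆Tub and 0.00537, 0.00828 and 0.0183 in control at baseline. The interaction of -5.10 (SE 1.16) came mostly from the baseline, where IKKβ∆Tub lay above control by 3.58, and it was -3.18 with the Y-linked covariate. Lcn2, which encodes lipocalin 2 and is also among the NF-κB targets, had levels of 3.49, 0.540 and 2.69 in IKKβ∆Tub and 6.36, 7.56 and 6.64 in control 14 days after I/R injury, against 0.108, 0.442 and 0.217 in IKKβ∆Tub and 0.0789, 0.0490 and 0.202 in control at baseline. Its strains were apart at 14 days and overlapped at baseline, with an interaction of -3.18 (SE 0.96). The list median was -0.71 without replicate 2 of IKKβ∆Tub 14 days after I/R injury and -0.86 with the Y-linked covariate.

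**Figure D3:**
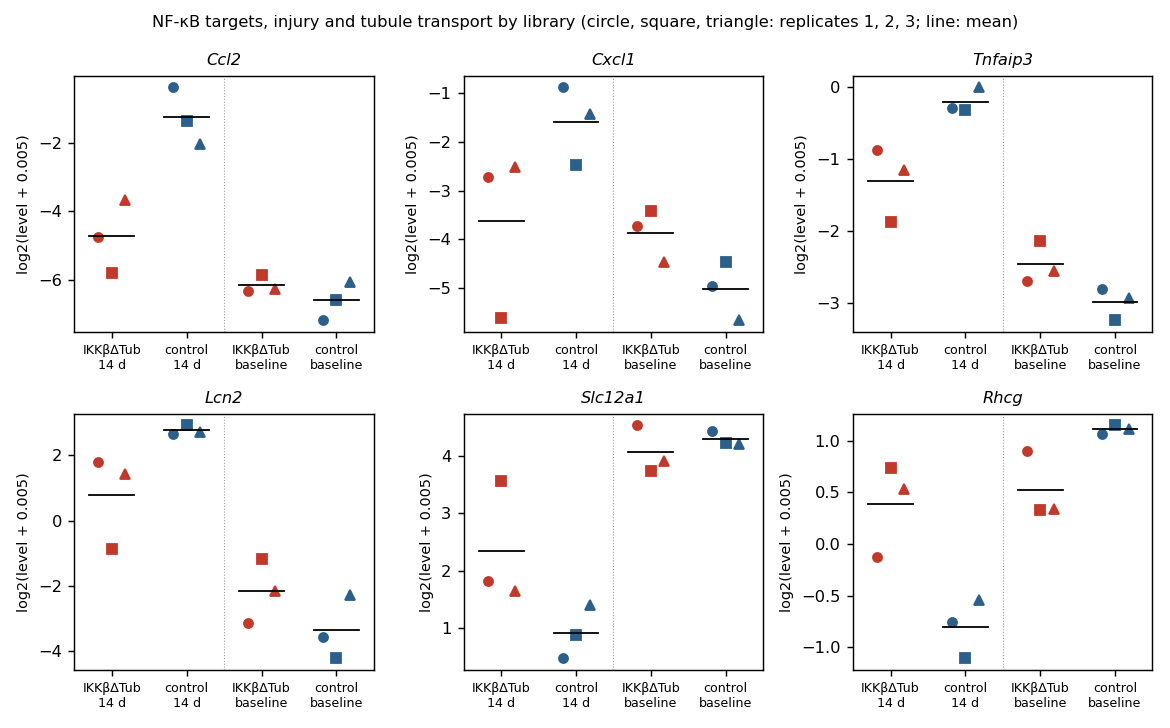
Level of NF-κB pathway, injury and tubular genes in each of the 12 libraries on a log2(level + 0.005) axis, with IKKβ∆Tub left of control at each time and each point a library and each line a mean on that axis. Ccl2 lies at 0.0132 to 0.0739 in IKKβ∆Tub and 0.241 to 0.762 in control 14 days after I/R injury, whereas the strains overlap at baseline.

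Every list of tubular segments had a positive median. In the thick ascending limb all 12 genes were positive, 8 at an unadjusted p under 0.05 beside 7.14% of all genes, with a median of 1.42. All 6 genes of the distal convoluted tubule (median 1.44), all 7 tested of the principal cell (0.82), all 8 of the intercalated cell (1.05) and 24 of 28 of the proximal tubule (0.59) were positive, and none was called. Slc12a1, which encodes the cotransporter NKCC2 of the thick ascending limb, had levels of 3.54, 11.8 and 3.14 in IKKβ∆Tub and 1.39, 1.83 and 2.63 in control 14 days after I/R injury, against 23.2, 13.3 and 15.2 in IKKβ∆Tub and 21.7, 18.7 and 18.6 in control at baseline. The strains were apart at 14 days and overlapped at baseline, with an interaction of 1.66 (SE 0.61, 0.71 with the covariate). The epidermal growth factor gene Egf had levels of 1.54, 30.0 and 2.21 in IKKβ∆Tub and 0.321, 0.436 and 1.68 in control 14 days after I/R injury, so that replicate 2 of IKKβ∆Tub alone was within the baseline range of 20.3 to 51.0. Its interaction was 3.27 (SE 1.31, 1.43 with the covariate), and that of Bsnd, which encodes a chloride channel subunit, 2.09 (SE 0.56, 0.80 with the covariate). Over all alternatives they ran over 0.10 to 4.29 and 0.40 to 2.44.

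Among collecting duct genes Hsd11b2, which encodes the enzyme that inactivates glucocorticoids in principal cells, had levels of 1.94, 1.96 and 3.43 in IKKβ∆Tub and 1.64, 1.05 and 1.60 in control 14 days after I/R injury, against 2.31, 1.90 and 2.00 in IKKβ∆Tub and 3.41, 3.32 and 3.98 in control at baseline. The strains did not overlap at either time, with an interaction of 1.53 (SE 0.33), and replicate 2 of IKKβ∆Tub was not the highest of its group at 14 days. Rhcg, which encodes an ammonia transporter of the collecting duct, had levels of 0.914, 1.66 and 1.45 in IKKβ∆Tub and 0.586, 0.461 and 0.683 in control 14 days after I/R injury, against 1.86, 1.25 and 1.26 in IKKβ∆Tub and 2.09, 2.21 and 2.16 in control at baseline. It too was apart in opposite directions, with an interaction of 1.77 (SE 0.33) and 1.14 with the Y-linked covariate. Slc4a1, which encodes the anion exchanger AE1 of intercalated cells, had 3.30 (SE 0.90, 1.98 with the covariate), and Aqp2, the water channel gene of principal cells, 1.55 (SE 0.73). Calb1 and Pvalb, calcium-binding protein genes of the distal convoluted tubule, had 2.15 (1.13 with the covariate) and 2.08 (1.33 with the covariate). In the proximal tubule Gatm, which encodes an enzyme of creatine synthesis, had 1.97 (SE 0.75) and Slc22a8, which encodes the organic anion transporter OAT3, 1.92 (SE 0.66, 1.07 with the covariate).

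With the Y-linked covariate the medians were 0.44 for the thick ascending limb (11 of 12 positive), 0.69 for the distal convoluted tubule (5 of 6), 0.81 for the principal cell (6 of 7), 0.75 for the intercalated cell (6 of 8) and 1.04 for the proximal tubule (28 of 28). In that fit 0, 0, 1, 3 and 5 genes of these lists had an unadjusted p under 0.05, beside 1281 of 15921 genes tested. Without replicate 2 of IKKβ∆Tub 14 days after I/R injury the medians were 0.98, 0.94, 0.67, 0.92 and 0.40 in the same order. Podocyte genes had a median of 0.26 (8 of 8 positive) in the 12 libraries and -0.08 (1 of 8) with the covariate, and endothelial genes 0.27 (10 of 14) and -0.10 (6 of 14). The slit diaphragm gene Nphs1 had 0.75 (0.12 with the covariate) and the podocyte surface gene Podxl 0.70 (-0.03 with the covariate), and the endothelial receptor gene Kdr had 0.96 (0.06 with the covariate) and Ehd3 1.49 (0.19 with the covariate).

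**Figure D4:**
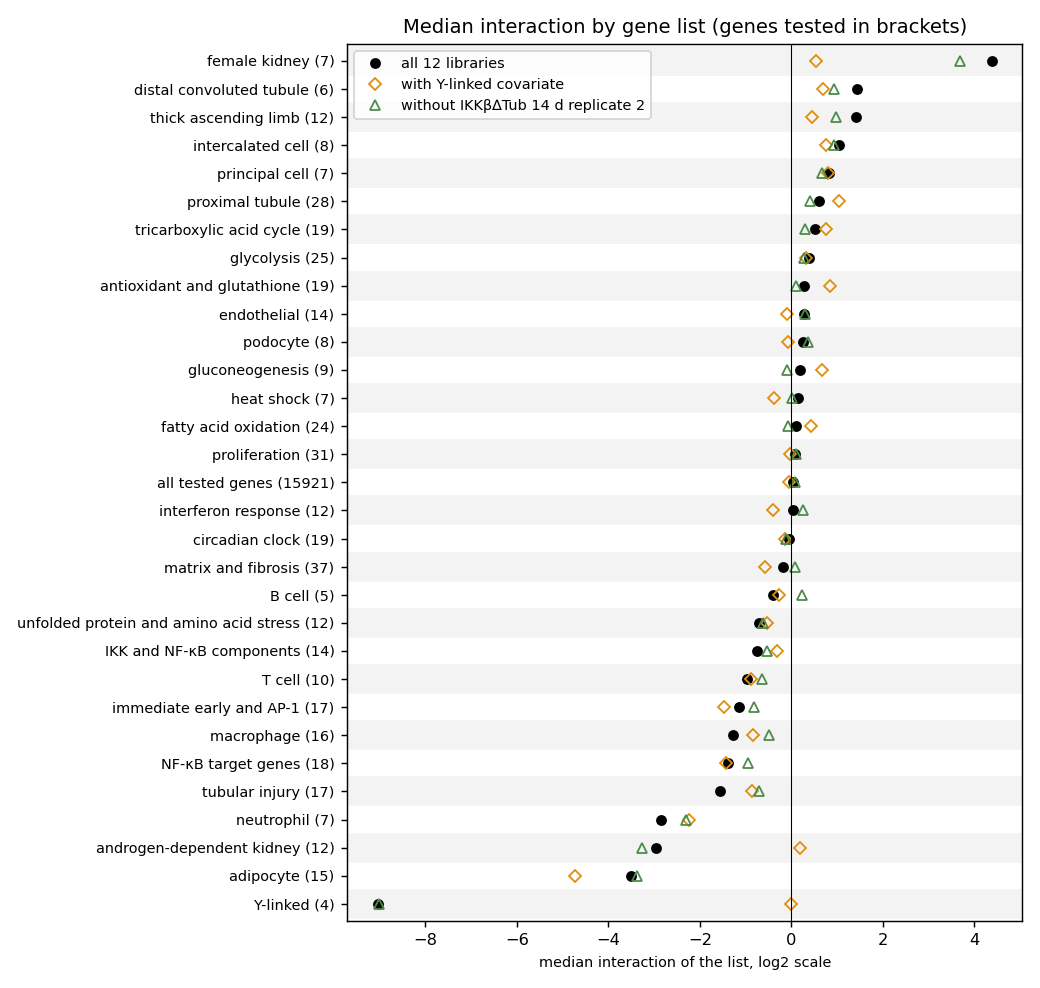
Median interaction of each gene list in log2 (horizontal axis), from the 12 libraries (circles), with the Y-linked covariate (diamonds) and without replicate 2 of IKKβ∆Tub 14 days after I/R injury (triangles). Medians of the tubular lists lie above 0 and those of NF-κB targets, neutrophil, macrophage and injury genes below 0 in all 3 fits, whereas the androgen-dependent and Y-linked lists lie close to 0 with the covariate only.

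Leukocyte markers had negative interactions. All 16 macrophage genes (median -1.27), all 10 T cell genes (-0.98) and all 7 neutrophil genes tested (-2.86) were negative and none was called. At an unadjusted p under 0.05 there were 2, 4 and 6 of them, beside 6.92% negative among all genes. With the Y-linked covariate 1 gene of each list had an unadjusted p under 0.05, beside 1281 of 15921 genes tested. The summed level of macrophage markers was 3.21 to 17.2 in IKKβ∆Tub and 26.9 to 35.7 in control 14 days after I/R injury, and 1.68 to 2.05 in IKKβ∆Tub and 1.97 to 2.58 in control at baseline. The neutrophil gene S100a8 had levels of 0.0253, 0.00732 and 0.0366 in IKKβ∆Tub and 0.237, 0.0843 and 0.0918 in control 14 days after I/R injury, against 0.0111, 0.0888 and 0.0656 in IKKβ∆Tub and 0.0120, 0.0121 and 0.00203 in control at baseline. The strains were apart at 14 days and overlapped at baseline, with an interaction of -4.26 (SE 0.96, -2.32 with the covariate), and S100a9, which encodes its partner subunit, had -4.19 (SE 1.03, -2.34 with the covariate). Lyz2, the lysozyme gene of macrophages, had levels of 4.73, 0.433 and 3.66 in IKKβ∆Tub and 13.0, 10.1 and 8.57 in control 14 days after I/R injury, against 0.135, 0.194 and 0.162 in IKKβ∆Tub and 0.237, 0.167 and 0.304 in control at baseline. IKKβ∆Tub lay below control on average at both times, and the interaction was -1.92 (SE 0.94). Cd14, a receptor gene for bacterial lipopolysaccharide, had -2.28 (SE 0.80, -0.81 with the covariate), with a range of -2.92 to -0.16 over all alternatives, and the T cell coreceptor gene Cd4 -0.96 (SE 0.57). With the covariate the medians were -0.83, -0.89 and -2.25 for macrophage, T cell and neutrophil genes, and without replicate 2 of IKKβ∆Tub 14 days after I/R injury -0.50, -0.65 and -2.31. B cell genes had a median of -0.40 (1 of 5 positive), -0.28 (2 of 5) with the covariate and 0.24 (3 of 5) without that replicate, with Jchain at -1.10 (-2.24 with the covariate) and Ighm at -0.40 (SE 1.13, 0.58 with the covariate). The part of these cells in the interactions of other genes was not tested.

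Lists of matrix and cell division had medians near that of all genes in the 12 libraries. Of 37 matrix genes 25 were negative and 12 positive, with a median of -0.18, which was -0.59 with the Y-linked covariate and 0.08 without replicate 2 of IKKβ∆Tub 14 days after I/R injury. Postn, which encodes periostin, had levels of 0.0781, 0.0527 and 0.0912 in IKKβ∆Tub and 0.294, 0.209 and 0.213 in control 14 days after I/R injury, against 0.144, 0.0790 and 0.0221 in IKKβ∆Tub and 0.0371, 0.0241 and 0.0620 in control at baseline. The strains were apart at 14 days and overlapped at baseline, and the interaction was -2.32 (SE 0.73). Timp1, the metalloproteinase inhibitor gene, had -1.75 (SE 1.04, -0.98 with the covariate). Of 31 proliferation genes 18 were positive and 13 negative, with a median of 0.08, which was -0.03 with the covariate. The thymidylate synthase gene Tyms had 0.81 and Mcm2, which encodes a subunit of the replicative helicase, -0.74 (0.17 with the covariate).

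In energy metabolism all 19 genes of the tricarboxylic acid cycle were positive, with a median of 0.51 and none called. At an unadjusted p under 0.05 there were 6, beside 7.14% positive among all genes, and 5 with the Y-linked covariate. The median was 0.76 (19 of 19 positive) with the Y-linked covariate and 0.29 (15 of 19) without replicate 2 of IKKβ∆Tub 14 days after I/R injury. Idh2, which encodes mitochondrial isocitrate dehydrogenase, had 0.84 (SE 0.34) and Sdhb, a succinate dehydrogenase subunit gene, 0.81 (SE 0.34, 1.23 with the covariate). Of 25 glycolysis genes 17 were positive, with a median of 0.39, and the lowest were Hk2 (-2.60, SE 0.87, -3.97 with the covariate), which encodes hexokinase 2, and Pfkfb3. Hk2 had levels of 0.220, 0.0447 and 0.184 in IKKβ∆Tub and 0.238, 0.218 and 0.322 in control 14 days after I/R injury, against 0.123, 0.0677 and 0.0204 in IKKβ∆Tub and 0.0127, 0.0110 and 0.0264 in control at baseline, with overlap of the strains at both times. Gluconeogenesis genes had a median of 0.19 (5 of 9 positive), 0.67 (8 of 9) with the covariate and -0.10 (3 of 9) without that replicate. Their lowest was the monocarboxylate transporter gene Slc16a1 (-1.29, -0.12 with the covariate). Fatty acid oxidation genes had a median of 0.09 (14 of 24 positive), 0.43 (21 of 24) with the covariate and -0.08 (10 of 24) without that replicate. The medium-chain dehydrogenase gene Acadm had 0.96 (SE 0.81).

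Antioxidant genes had a median of 0.28, 0.85 with the Y-linked covariate and 0.10 without replicate 2 of IKKβ∆Tub 14 days after I/R injury, between Gsta4 (2.83, 0.87 with the covariate), a glutathione S-transferase gene, and Hmox1 (-2.86), which encodes heme oxygenase 1. Hmox1 had levels of 0.957, 0.528 and 0.601 in IKKβ∆Tub and 1.20, 0.610 and 0.824 in control 14 days after I/R injury, against 0.879, 8.25 and 12.8 in IKKβ∆Tub and 1.79, 0.683 and 0.387 in control at baseline. Its high values were those of the baseline libraries with Y-linked mRNA, and its interaction was -0.49 with the covariate. Immediate early and AP-1 genes had a median of -1.14 (15 of 17 negative) and -1.47 with the covariate, and genes of the unfolded protein and amino acid stress responses -0.70 (10 of 12 negative) and -0.52. At an unadjusted p under 0.05 in limma 4 and 7 genes of these lists were negative, beside 6.92% of all genes. With the covariate 0 genes of either list had such a p. Atf3, a stress-induced transcription factor gene, had -3.47 (SE 1.21, -2.27 with the covariate), the AP-1 gene Fosb -2.65 (SE 1.29), Chac1, which encodes a glutathione-degrading enzyme, -2.27 (SE 0.81, -0.94 with the covariate), and Sesn2, which encodes sestrin 2, -1.82 (SE 0.55, -0.55 with the covariate). In Atf3 and Chac1 every IKKβ∆Tub library lay above every control library at baseline and the strains overlapped at 14 days.

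Circadian clock genes had a median of -0.05 and -0.15 with the covariate, with the output gene Dbp at 1.30 (SE 0.28) and the repressor gene Nfil3 at -1.94 (SE 0.53, -0.87 with the covariate). Dbp had levels of 1.28, 1.86 and 1.96 in IKKβ∆Tub and 1.43, 0.974 and 1.39 in control 14 days after I/R injury, against 0.848, 0.944 and 0.842 in IKKβ∆Tub and 1.43, 1.52 and 1.94 in control at baseline, so the strains overlapped at 14 days and were apart at baseline. Heat shock genes had a median of 0.14 (4 of 7 positive) and -0.37 (2 of 7) with the covariate, with Hspb1 at -1.44 and Hsp90aa1 at -0.71. Interferon response genes had a median of 0.03 (6 of 12 positive), -0.41 (2 of 12) with the covariate and 0.26 (10 of 12) without replicate 2 of IKKβ∆Tub 14 days after I/R injury, with Gbp2 at -0.78 and Isg15 at 0.53 (1.13 with the covariate). Mitochondrially encoded genes were not analysed here.

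Genes that depend on sex had very large interactions, and these followed the Y-linked mRNA. Xist, which is transcribed from the inactive X chromosome of females, had levels of 10.6, 6.24 and 6.43 in IKKβ∆Tub and 0.00278, 0.00160 and 8.10 in control 14 days after I/R injury, against 4.77, 0.00458 and 0.00214 in IKKβ∆Tub and 3.33, 3.47 and 5.86 in control at baseline. The low libraries are those with Y-linked mRNA, and the interaction was 12.54 (SE 3.72) and -0.22 with the covariate. The Y-linked genes Ddx3y, Eif2s3y, Uty and Kdm5d had -9.81, -9.74, -8.34 and -7.73, and between -0.05 and 0.06 with the covariate, which is built from them. The 12 androgen-dependent kidney genes had a median of -2.95 (11 negative) and 0.19 (7 positive) with the covariate, and the 7 female kidney genes 4.38 and 0.53. The organic anion transporter gene Slco1a1, which is male-biased in mouse kidney, had -9.39 and -0.36 with the covariate. The female-biased genes Ugt1a2 and Slc7a12 had 9.70 and 7.63, and 0.36 and 0.11 with the covariate.

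Acsm3, an acyl-CoA synthetase gene placed in the androgen-dependent list, also separated the strains among libraries without Y-linked mRNA. Its levels were 0.00729, 0.00805 and 0.0166 in IKKβ∆Tub and 0.401, 0.462 and 0.0322 in control 14 days after I/R injury, against 0.147, 7.73 and 8.23 in IKKβ∆Tub and 0.0291, 0.0210 and 0.0177 in control at baseline. The libraries with Y-linked mRNA were the highest of each time, and among those without it control lay above IKKβ∆Tub at 14 days and below it at baseline. The interaction was -9.95 (SE 1.85), -3.84 (SE 0.79) with the covariate and -3.78 among the 8 libraries without Y-linked mRNA, which hold 1 control library of 14 days and 1 IKKβ∆Tub library of baseline.

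**Figure D5:**
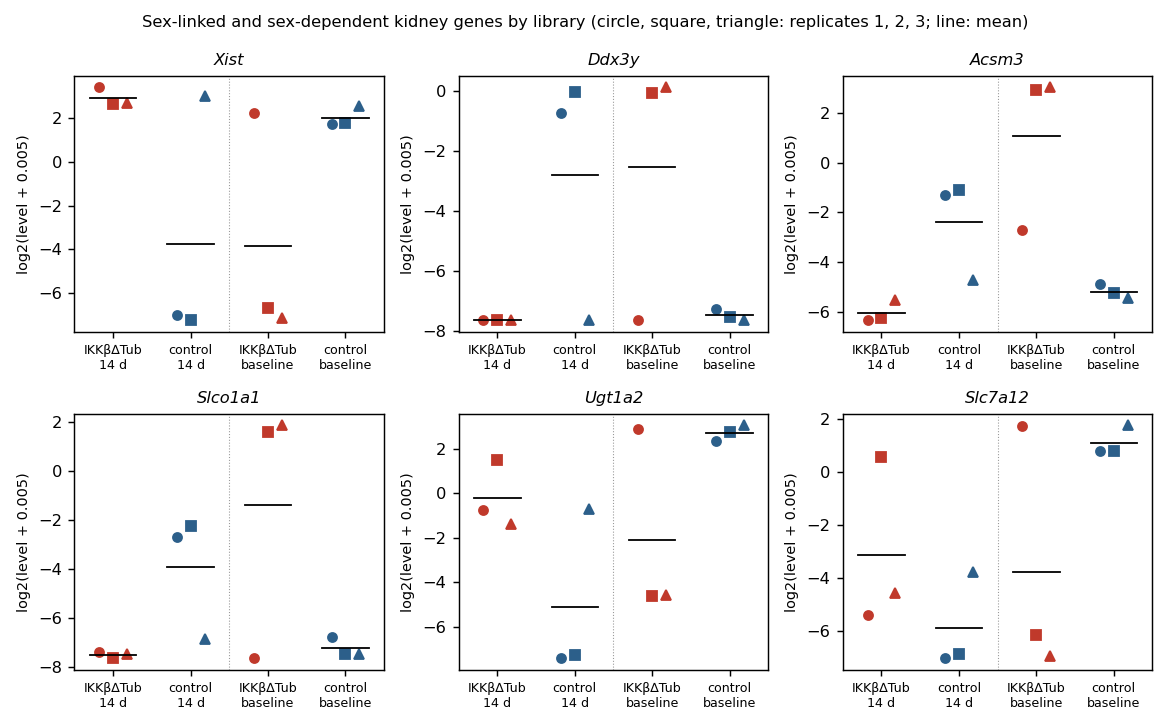
Level of Xist, Y-linked and sex-dependent kidney genes in each of the 12 libraries on a log2(level + 0.005) axis, with IKKβ∆Tub left of control at each time and each point a library and each line a mean on that axis. Y-linked mRNA is high and Xist low in replicates 1 and 2 of control 14 days after I/R injury and in replicates 2 and 3 of IKKβ∆Tub at baseline.

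Markers of fat, a tissue next to the kidney, differed between these libraries as well. Of 15 adipocyte genes tested 14 had a negative interaction, with a median of -3.51, and -4.73 with the Y-linked covariate. Their summed level was 8.91 to 32.7 in IKKβ∆Tub and 15.4 to 42.5 in control 14 days after I/R injury, and 23.9 to 60.0 in IKKβ∆Tub and 7.36 to 17.9 in control at baseline. Ucp1, the uncoupling protein gene of brown fat, had levels of 0.00386, 0.0293 and 0.0613 in IKKβ∆Tub and 0.278, 0.00374 and 0.125 in control 14 days after I/R injury, against 0.804, 0.335 and 0.000238 in IKKβ∆Tub and 0.000244, 0.00138 and 0.0142 in control at baseline. Replicates 1 and 3 of control at 14 days and replicates 1 and 2 of IKKβ∆Tub at baseline held most of this signal, and the strains overlapped at both times. Cidea, a lipid droplet gene, had an interaction of -4.55 (SE 1.76). Whether the mRNA of this list came from fat or from kidney cells was not tested. The part of fat in the interactions of other genes was not tested either.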

How the data were processed

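Kidney mRNA was measured in stranded, poly(A)-selected libraries. The authors trimmed with Trim Galore 0.4, aligned with STAR 2.5.2b to GRCm38, counted with featureCounts 1.5.2 and deposited as signal, for each gene, its count divided by the 90th percentile of the library. All values (100%) were whole multiples of 1 read within 0.001 read, so reads were recovered. Interactions were tested with limma 3.58.1 (trended) in R 4.3.3 on log2(level + 0.005), a scale that understates changes of low genes, for genes at 0.005 or more in at least 3 of 12 libraries, with Benjamini-Hochberg adjustment over all of them and a threshold of 0.05. edgeR 4.0.16 and DESeq2 1.42.0 were run on recovered reads, and DESeq2 gave no adjusted p for 337 genes. The Y-linked covariate was the mean of log2(level + 0.005) over Ddx3y, Eif2s3y, Uty and Kdm5d in each library. Genes named were the 12 per direction with the smallest p and the 6 per direction in the covariate fit (mean level of at least 0.05, predicted genes passed over), the 2 per list with the largest interaction in size, and Ikbkb, Pfkfb3, Vmn1r32, Xist and the Y-linked genes. One gene that this rule names is not reported here. Cxcl2, Nfkbia, Rel, Slc12a1 and Sod2 were named after their values were seen. Genes, lists and tests were chosen with earlier results of these data known. Positions are from GENCODE M21, matched by Ensembl identifier. The scripts were tested on simulated data. Alternatives were other pseudocounts, filters, scalings, tools and designs, and each library left out. Intervals measure the spread between libraries, and depth limits low genes most.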

Additional observations from a re-analysis of the deposited data

Results flagged for a closer look

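In 21 named genes every library of one strain lay on one side of the other strain 14 days after I/R injury and on the opposite side at baseline, so that the strain difference had opposite signs at the 2 times. The log2 interactions, all with an adjusted p above 0.05 from limma, were positive in Slc39a5 (2.41), Prodh2 (2.34), Alpl (1.65), Zfp503 (1.13), Cyp2d26 (2.74), Rhcg (1.77), Atp6v1b1 (1.60), Amt (0.98), Spp2 (2.59), Tmem143 (1.30), Hsd11b2 (1.53). They were negative in Pfkfb3 (-1.99), Bcl6 (-2.52), Adora1 (-1.76), Slc12a2 (-1.27), Acsm3 (-9.95), Dnase1l2 (-2.20), Klhl6 (-1.66), Plet1os (-1.92), Ugt8a (-3.95), Tnfaip3 (-1.62). Over all 15921 tested genes the strains were apart in opposite directions in 274 (1.72%). Most named genes were picked by their interaction, which favours such an order. The 21 genes are therefore no measure of how common it is. Sex ran with these comparisons, and its part in them was not tested beyond the covariate fit.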

How the results depend on the processing

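The interaction was called for 0 genes in the 12 libraries and with a pseudocount of 0.001, no filter, either rescaling, no trend, edgeR, the Y-linked covariate and the replicate block, but for 9 genes with a pseudocount of 0.05, 1 with a filter of 0.05, 19 with all 18 libraries (strain labels of 2 days in doubt), 535 with DESeq2, 8 in the 8 libraries without Y-linked mRNA, and 0 to 447 with single libraries left out (447 without replicate 1 of IKKβ∆Tub at baseline). The 18 genes of the strain difference at 14 days became 2 and 59 with pseudocounts of 0.001 and 0.05, 30 with no filter, 2 with a filter of 0.05, 60 with all 18 libraries, 1 with edgeR, 234 with DESeq2, 1 with the Y-linked covariate, 5 with the replicate block, 1 with the covariate and without replicate 2 of IKKβ∆Tub at 14 days (chosen after seeing the data), and 3 to 66 with single libraries left out. The 1 gene at baseline became 2 with a pseudocount of 0.05, 4 and 4 with median ratios and TMM, 7 with all 18 libraries, 3 with edgeR, 421 with DESeq2, 0 in the libraries without Y-linked mRNA, and 1 to 762 with single libraries left out. The 274 genes apart in opposite directions became 306 to 686 with single libraries left out. Interactions changed sign with the Y-linked covariate in Eif2s3y 0.0353, Ddx3y 0.0597, Xist -0.22, Podxl -0.0330, Mcm2 0.17, Ikbkb -0.0203, Vmn1r32 0.0381, Ighm 0.58, in the 8 libraries without Y-linked mRNA in Uty 0.0321, Kdm5d 0.0321, Eif2s3y 0.14, Ddx3y 0.16, Xist -0.33, Podxl -0.0431, Mcm2 0.20, Ikbkb -0.0232, Vmn1r32 0.0428, Ighm 0.60, and with the covariate and without replicate 2 of IKKβ∆Tub at 14 days in Ugt1a2 -0.48, Eif2s3y 0.0569, Ddx3y 0.0514, Xist -0.0777, Ehd3 -0.10, Slc7a12 -1.72, Kdr -0.19, Podxl -0.11, Bcl3 0.40, Mcm2 0.32, Acadm -0.11, Vmn1r32 0.14, Ighm 1.55. edgeR and DESeq2 gave 0.28 and 0.27 for Ighm, and with single libraries left out the values ran over -1.41 to 0.58. The cause of these changes was not tested. Libraries with the same number correlated in their deviations from the group means at a median of -0.01 (lowest -0.36, highest 0.17). Those with different numbers correlated at a median of 0.06 (lowest -0.33, highest 0.51). With 3 libraries per group these values cannot decide whether the number marks a pairing. With the replicate block the interaction was called for 0 genes, as in the fit without it.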

Other observations

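Among the 8 libraries without Y-linked mRNA the interaction was called by limma for 8 genes, all negative, which are known as genes of liver (Ahsg, Serpina3k, Orm1) and exocrine pancreas (Cela2a, Ctrb1, Sycn, Pnliprp1, Cuzd1), and they were chosen after their values were seen. That fit holds 1 control library 14 days after I/R injury, replicate 3, and 1 IKKβ∆Tub library at baseline, each taken to vary like the other groups. Serpina3k, a serine protease inhibitor gene of liver, had levels of 5.48, 0.00640 and 0.432 in control 14 days after I/R injury, and Ctrb1, the chymotrypsinogen gene, 0.195, 0.00160 and 13.5. In the other 9 libraries both genes lay between 0 and 0.0349. Replicate 1 of that group was highest for Serpina3k and replicate 3 for Ctrb1.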
